A study of Mus musculus with 9 samples.

Results

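The angiogenic ligands measured here were 10 secreted factors of the VEGF, PDGF and angiopoietin groups, namely *Vegfa*, *Vegfb*, *Vegfc*, *Vegfd*, *Angpt2*, *Angptl4*, *Pdgfa*, *Pdgfb*, *Pdgfc* and *Pdgfd*. They were chosen by gene symbol, and all 10 were found among the 46095 symbols of the count table. RNA-seq libraries of intestinal epithelial cells (IECs) had been made from 4 Smad4 Vil-KO mice, called single-knockout mice here, and from 5 Smad4 Vil-KO;Setd2 Vil-KO (double-knockout) mice. In both genotypes Cre recombinase under the Villin promoter deleted floxed *Smad4*, the common signal transducer of the TGF-β pathway, in the intestinal epithelium, and in double-knockout mice it also deleted floxed *Setd2*, the methyltransferase that trimethylates lysine 36 of histone H3. The mice had a C57BL/6j background. All had received the carcinogen AOM (10 mg/kg) at 8 weeks of age and DSS, which injures the colonic epithelium, at 2% in the drinking water for 5 days. IECs were released from the colon with 8 mM EDTA at 10 days of this treatment. No untreated mice, no mice with intact *Smad4* and no mice lacking *Setd2* alone were among these libraries, so that each difference below is one between Smad4-deficient epithelia.

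Blood vessels sprout and branch under the control of secreted growth factors. VEGF-A binds VEGF receptors 1 and 2 on endothelial cells and drives sprouting and permeability, and VEGF-B binds VEGF receptor 1. VEGF-C and VEGF-D are made as precursors that proteases cleave into ligands of VEGF receptor 3, the receptor of lymphatic vessels. Angiopoietin-2 binds the endothelial receptor Tie2 and loosens vessels for remodelling, while angiopoietin-like 4 is an inhibitor of lipoprotein lipase that is induced by fasting, PPARs and hypoxia. PDGF-A and PDGF-B are secreted as active dimers that act on fibroblasts, pericytes and smooth muscle cells through PDGF receptors α and β. PDGF-C and PDGF-D carry a CUB domain and are latent until a protease such as tissue plasminogen activator, urokinase or matriptase removes it. In the gut, epithelial cells are a source of VEGF-A and PDGF-A, whereas the receptors lie mainly on endothelial and mesenchymal cells.

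Of the 4 ligand transcripts that were higher after loss of *Setd2*, 3 had an entry among the RefSeq promoter windows of GRCm38.p6, which hold 250 bases before each annotated transcription start. These 3 windows are shown because they held few CpG dinucleotides, and the window of *Vegfa*, which did not pass the test, is shown for comparison. CpG dinucleotides are in capitals. The *Pdgfc* window lies at chr3:81036166-81036415 on the plus strand, the *Pdgfd* window at chr9:6168236-6168485 on the plus strand and the *Vegfa* window at chr17:46032378-46032627 on the minus strand. For *Vegfd* only the 106 bases before the first annotated transcript of the GENCODE annotation are printed, at chrX:164373272-164373377 on the plus strand. Each is written 5′ to 3′ on the strand of its gene.
Pdgfc: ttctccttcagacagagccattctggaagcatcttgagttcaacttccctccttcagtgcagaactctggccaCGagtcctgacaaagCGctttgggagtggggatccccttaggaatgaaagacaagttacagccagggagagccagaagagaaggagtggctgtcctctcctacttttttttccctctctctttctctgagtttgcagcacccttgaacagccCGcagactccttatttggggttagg
Pdgfd: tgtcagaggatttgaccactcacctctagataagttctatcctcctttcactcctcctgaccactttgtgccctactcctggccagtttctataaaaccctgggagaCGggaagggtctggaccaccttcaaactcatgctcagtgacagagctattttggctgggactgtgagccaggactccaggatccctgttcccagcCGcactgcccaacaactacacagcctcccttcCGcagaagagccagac
Vegfd: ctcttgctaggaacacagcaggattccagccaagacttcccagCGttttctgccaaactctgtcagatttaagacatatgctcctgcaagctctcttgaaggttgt
Vegfa: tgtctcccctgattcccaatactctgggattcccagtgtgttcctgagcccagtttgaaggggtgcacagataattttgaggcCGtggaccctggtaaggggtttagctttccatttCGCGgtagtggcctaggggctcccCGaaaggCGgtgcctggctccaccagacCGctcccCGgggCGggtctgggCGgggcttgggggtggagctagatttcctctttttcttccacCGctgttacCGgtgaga

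*Vegfd* held 2 CpG dinucleotides in its whole window, *Pdgfc* held 3 and *Pdgfd* held 3. The windows of the ligands that did not pass the test held 7 and 11 (*Vegfa*, 2 starts), 26 (*Vegfb*), 30 (*Vegfc*) and 19 and 28 (*Pdgfa*, 2 starts). The *Vegfa* window with 7 and both *Pdgfa* windows lie inside the GENCODE span of their genes. At the starts given for *Vegfa*, *Vegfc* and *Pdgfd*, the first transcribed bases were found in no GENCODE transcript of the gene. No window was given for *Angpt2*, *Angptl4* or *Pdgfb*. The median over 32851 single windows of the reference was 6. Over the 10380 tested genes with a window it was 16, where each gene was given the highest count among its windows. These 2 medians are therefore not of the same measure, and the classes below use the count per gene. Among tested genes with at most 3 CpG dinucleotides, 98 of 989 (9.91%) had higher transcripts in double-knockout libraries, against 501 of 8524 (5.88%) of those with at least 7 and 666 of 10380 (6.42%) of all. These classes were set after the ligand values had been seen, so the shares are a description. The letters ACGTG on either strand, the core of the hypoxia response element, occurred once and occur in 16.6% of all windows. The match was in the *Vegfa* window with 7 CpG dinucleotides, inside the gene. TGANTCA, the AP-1 motif, occurred in none of the 7 ligands' windows and occurs in 6.75% of all windows.

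The table held whole-number counts that the authors had not normalized. The total count per library was 12487129 to 17120202, so that a single count equalled 0.0594 to 0.0794 CPM (counts relative to a library total adjusted by TMM). The genotypes were compared with edgeR's quasi-likelihood test on the 14593 genes that passed its filter on low counts, with Benjamini-Hochberg adjustment over all of them, and a gene was called at an adjusted p under 0.05. *Setd2* itself was at 113 ± 9.45 CPM in the 4 single-knockout libraries and at 66.1 ± 14.7 CPM in the 5 others (mean ± SD), with an edgeR adjusted p of 0.00756. *Smad4*, deleted in both genotypes, was at 64.2 ± 19.0 and 70.3 ± 34.4 CPM (adjusted p = 0.819). Summed counts of 4 Y-linked genes were 3857 to 4907 in double-knockout replicates 1, 2 and 5 and at most 28 in the other 6 libraries, so values are also given with a term for these 3 libraries and for the 6 others alone. As all 3 are double-knockout, the term leaves the genotype contrast to the other 6 libraries. Both values are therefore nearly the same estimate and not separate checks. The summed level of 8 epithelial markers was 14399 to 15951 CPM in single-knockout libraries and 13001 to 15651 CPM in double-knockout libraries, and none of the 8 was called.

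Of the 10 ligands, 9 passed the filter on low counts, which asked for about 0.697 CPM (before TMM) in 4 libraries of any genotype. *Vegfd* reached this level in 0 single-knockout libraries and *Pdgfd* in 1, while each did in all 5 double-knockout libraries. Both were therefore tested only through the group in which they were high, so the count of ligands called is no support for a direction. Transcripts of 4, *Vegfd*, *Angpt2*, *Pdgfc* and *Pdgfd*, were higher in double-knockout libraries and none was lower. Over all tested genes 986 (6.76%) were called higher and 955 (6.54%) lower. The groups did not overlap for *Vegfd*, *Angpt2* and *Pdgfc*, and 8.34% of all tested genes were as fully separated in this direction. The 4 were among the low transcripts, between 0.2 and 7 CPM, and among tested genes whose mean lay between 0.5 and 10 CPM 378 of 5114 (7.39%) were called higher, against 6.4% of those above 10 CPM. With 1 library left out, 0 to 3 of the 4 stayed called, and 0 did without single-knockout replicate 4. The count was 2 without the libraries with Y-linked counts. The study's heat map of genes tied to RAS/ERK signalling, read by eye, displays these same 4 ligands from these same libraries. Their direction is therefore not independent evidence for that choice. The study also reports RT-qPCR of genes of this pathway, and its text does not name them. In bulk RNA a change in the number of cells of a type and a change in RNA per cell cannot be told apart.

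**Figure D1:**
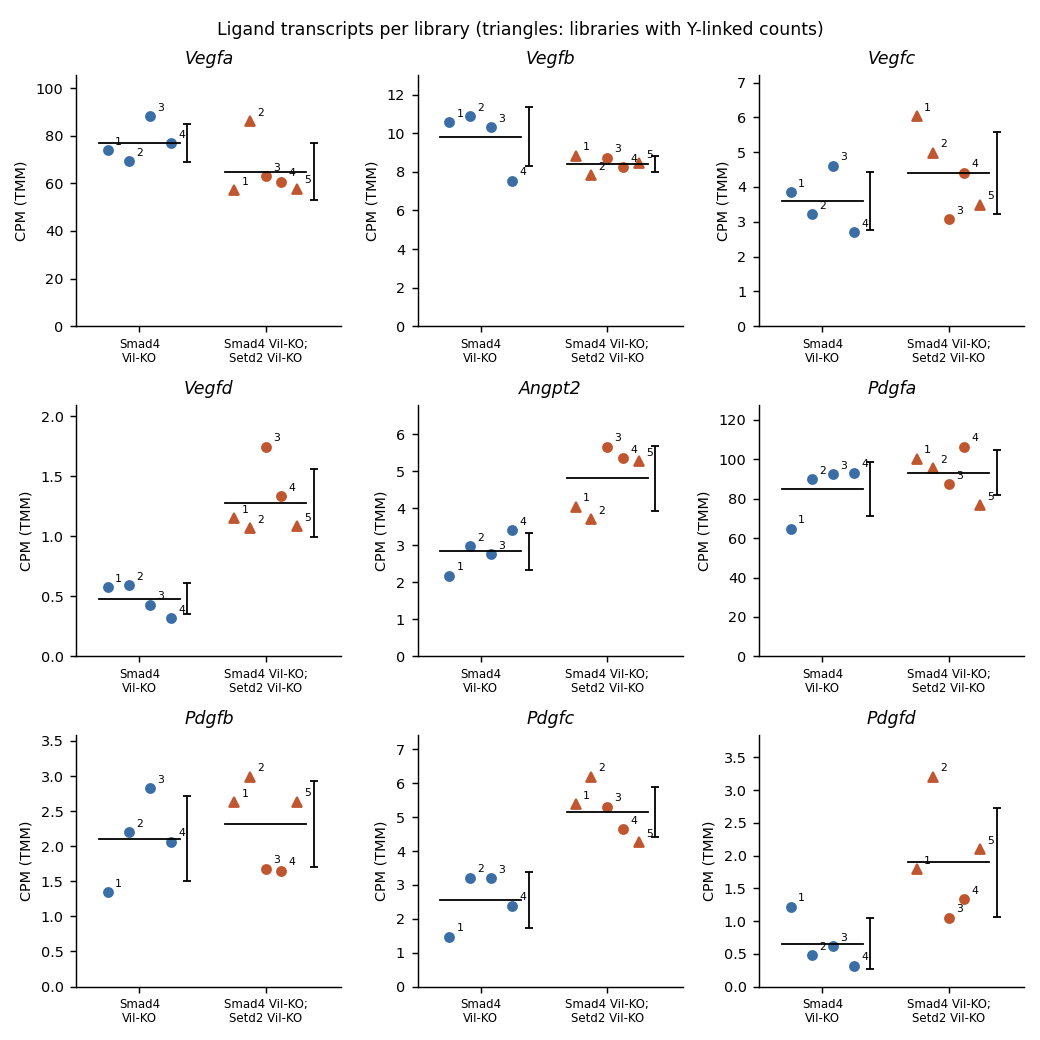
TMM-normalized CPM (y axis, linear, from 0) of the 9 tested ligands in each library, with the 4 single-knockout (Smad4 Vil-KO) libraries in blue and the 5 double-knockout libraries in orange, and replicate numbers beside the points. Lines are group means, bars are ± SD and triangles are the libraries with Y-linked counts; the groups are fully separated for Vegfd, Angpt2 and Pdgfc, and overlap for the other 6 ligands.

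*Vegfa* was the most abundant VEGF transcript and did not pass the test. It was at 73.8, 69.3, 88.1 and 76.9 CPM in single-knockout replicates 1 to 4 and at 57.2, 86.1, 63.0, 60.7 and 57.7 CPM in double-knockout replicates 1 to 5. Double-knockout replicate 2 lay within the single-knockout range and the other 4 lay below it. The log2 fold change was -0.25 (standard error 0.13, 95% interval -0.53 to 0.04, edgeR adjusted p = 0.220). Without double-knockout replicate 2 it was -0.37 with an adjusted p of 0.0306, so that this 1 library decided the call.

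*Vegfb*, which acts through VEGF receptor 1, was at 7.54 to 10.9 CPM in single-knockout libraries and at 7.83 to 8.85 CPM in double-knockout libraries (log2 fold change -0.22, 95% interval -0.54 to 0.09, edgeR adjusted p = 0.308). *Vegfc*, the main lymphatic growth factor, was at 2.70 to 4.61 and 3.08 to 6.02 CPM (log2 fold change 0.29, 95% interval -0.26 to 0.84, adjusted p = 0.459). The groups overlapped for both, and neither interval excludes no change.

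*Vegfd*, the other lymphatic growth factor and a gene of the X chromosome, was the VEGF transcript that rose. Its counts were 9, 10, 7 and 4 in single-knockout replicates 1 to 4, or 0.577, 0.594, 0.430 and 0.318 CPM. In double-knockout replicates 1 to 5 they were 18, 15, 25, 17 and 14, or 1.15, 1.07, 1.75, 1.34 and 1.09 CPM. Every double-knockout library was above every single-knockout library, and replicate 3 was the highest. The log2 fold change was 1.38 (standard error 0.31, 95% interval 0.69 to 2.07, edgeR adjusted p = 0.0176), or 2.61-fold, from counts of at most 25 per library. Its entry to the test rested on the double-knockout libraries alone, and in the fit without the filter its adjusted p was 0.0458. The adjusted p was 0.0639 without single-knockout replicate 3 and 0.0519 without replicate 4, at log2 fold changes of 1.33 and 1.24. The 3 double-knockout libraries with Y-linked counts held the 3 lowest values of their group. With a term for these libraries the log2 fold change was 1.65 (adjusted p = 0.0211), and among the 6 libraries without such counts it was 1.66 (adjusted p = 0.0224).

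*Angpt2* was at 2.18, 2.97, 2.76 and 3.41 CPM in single-knockout replicates 1 to 4 and at 4.04, 3.70, 5.66, 5.35 and 5.27 CPM in double-knockout replicates 1 to 5, from 34 to 50 and 52 to 81 counts. All 5 double-knockout libraries were above all 4 others, with replicates 1 and 2 nearest to them. The log2 fold change was 0.76 (standard error 0.22, edgeR adjusted p = 0.0412), or 1.70-fold. The call was close to the threshold. It was lost without any one of the 4 single-knockout libraries and without double-knockout replicates 3, 4 or 5, with adjusted p from 0.0506 to 0.112 and log2 fold changes from 0.66 to 0.86. *Angpt2* lies at 8:18690263-18741562 on the minus strand, overlapping *Mcph1* on the opposite strand with 0 shared exon bases. *Mcph1* had a log2 fold change of 0.21 (adjusted p = 0.321). *Angpt1*, which activates Tie2 and which angiopoietin-2 competes with, had at most 7 counts in any library and was not tested.

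*Angptl4* was not detected beyond 1 count in double-knockout replicate 2, and had 0 counts in the other 8 libraries. A count of 0 allows up to 0.178 to 0.238 CPM (3 counts, counting error only), where reads of its exons were counted in full, so a difference was not detectable in this table and no fold is given. The annotation used for the counting is not given in the sources used here, so that could not be checked. The gene has 7 merged exons with 3541 bases in GENCODE, and no other annotated gene overlaps it. As the angiopoietin pair, *Angpt2* and *Angptl4* gave *Angpt2* a share of 100% in 8 libraries and 98.0% in double-knockout replicate 2, which was not tested.

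*Pdgfa*, the main epithelial PDGF, was at 64.8, 89.9, 92.3 and 93.1 CPM in single-knockout replicates 1 to 4 and at 100.3, 95.6, 87.4, 106.4 and 76.7 CPM in double-knockout replicates 1 to 5. The groups overlapped, and the log2 fold change was 0.13 (95% interval -0.15 to 0.41, edgeR adjusted p = 0.505). Of its exon bases, 26.1% lie opposite an antisense transcript, and whether the counting used strand is not given in the sources used here. *Pdgfb*, which recruits pericytes, was at 1.35 to 2.83 and 1.65 to 2.99 CPM (log2 fold change 0.13, 95% interval -0.51 to 0.78, adjusted p = 0.787). Its sign turned with a term for Y-linked counts (log2 fold change -0.34) and without single-knockout replicate 1 (-0.025).

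*Pdgfc*, a latent ligand of PDGF receptor α, was at 1.48, 3.21, 3.19 and 2.38 CPM in single-knockout replicates 1 to 4 and at 5.38, 6.19, 5.31, 4.64 and 4.27 CPM in double-knockout replicates 1 to 5. These came from 23 to 54 counts and from 55 to 87 counts. Every double-knockout library was above every single-knockout library, and single-knockout replicate 1 was the lowest of all. The log2 fold change was 1.0 (standard error 0.25, edgeR adjusted p = 0.0258), or 2.0-fold. Without single-knockout replicate 1 the log2 fold change was 0.82 (adjusted p = 0.0566) and without replicate 4 it was 0.97 (adjusted p = 0.0670). Among the libraries without Y-linked counts it was 0.96 (adjusted p = 0.0613), and with a term for those counts 0.95 (adjusted p = 0.0926), so the size held and the call did not.

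*Pdgfd*, a latent ligand of PDGF receptor β, was at 1.22, 0.475, 0.614 and 0.318 CPM in single-knockout replicates 1 to 4 and at 1.79, 3.20, 1.05, 1.34 and 2.09 CPM in double-knockout replicates 1 to 5. The counts were 19, 8, 10 and 4, and 28, 45, 15, 17 and 27. single-knockout replicate 1 overlapped the double-knockout range, and double-knockout replicate 2 was the highest. The log2 fold change was 1.5 (standard error 0.45, edgeR adjusted p = 0.0480), or 2.84-fold. It entered the test through the double-knockout libraries, and without the filter its adjusted p was 0.0592. Double-knockout replicates 1, 2 and 5, the libraries with Y-linked counts, held the 3 highest values. Among the other 6 libraries the log2 fold change was 0.84 (adjusted p = 0.289), and with a term for Y-linked counts 0.84 (adjusted p = 0.328). The call was also lost without single-knockout replicates 2, 3 or 4 and without double-knockout replicates 1, 2, 4 or 5, with adjusted p from 0.0564 to 0.128 and log2 fold changes from 1.23 to 1.61.

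All 4 ligands were also called by DESeq2, by limma-voom with quality weights, by edgeR with DESeq2's size factors and by edgeR with library size alone, at adjusted p of 0.00196 to 0.0476. Without the filter on low counts the edgeR adjusted p was 0.0813 for *Angpt2* and 0.0592 for *Pdgfd*, so that both calls were lost.

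**Figure D2:**
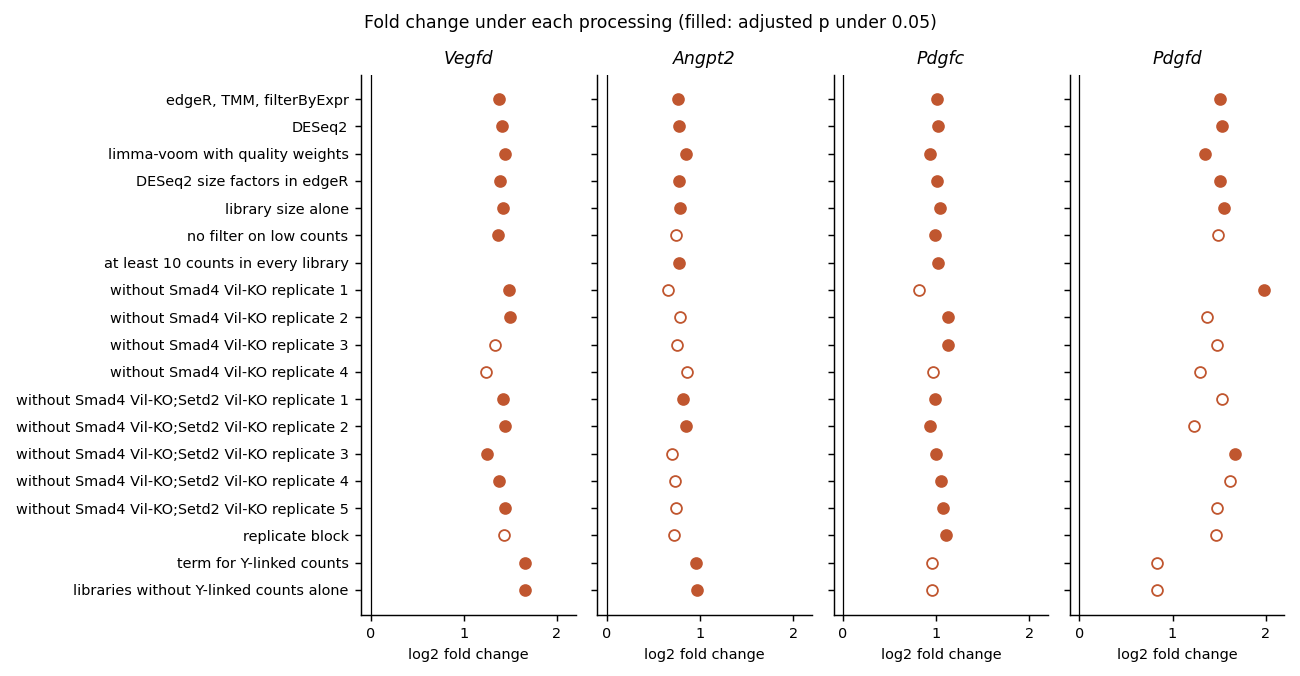
log2 fold change (x axis, double-knockout over single-knockout) of the 4 called ligands under each processing of the counts (rows), filled where the adjusted p was under 0.05 and open where it was not. All lie to the right of 0; no point is drawn for Vegfd and Pdgfd with at least 10 counts in every library, where they were not tested.

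Per kilobase of merged exons, the order of mean levels in single-knockout libraries was *Pdgfa* (27.3 ± 4.35 CPM per kb, SD, n = 4), *Vegfa* (18.0 ± 1.87), *Vegfb* (6.12 ± 0.961) and *Vegfc* (1.47 ± 0.337), followed by *Angpt2* (0.768 ± 0.139). *Pdgfb* (0.507 ± 0.146) and *Pdgfc* (0.504 ± 0.162) did not differ beyond their spread, nor did *Pdgfd* (0.208 ± 0.125) and *Vegfd* (0.199 ± 0.0544). In double-knockout libraries the first 5 kept this order, at 29.9, 15.2, 5.25, 1.79 and 1.30 CPM per kb. *Pdgfc* then stood at 1.01, above *Pdgfd* (0.601), *Pdgfb* (0.557) and *Vegfd* (0.531), and these last 3 lay within each other's spread.

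Each ligand's share of its family was taken from the same CPM per kb, as a percentage of the sum over *Vegfa*, *Vegfb*, *Vegfc* and *Vegfd* or over *Pdgfa*, *Pdgfb*, *Pdgfc* and *Pdgfd*. The shares of 8 ligands were compared between genotypes with two-sided exact permutation tests over the libraries, unadjusted, for which the smallest possible p is 0.0159. They rest on the counts already described and are no second measurement of them.

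*Vegfd* took 0.935%, 1.01%, 0.614% and 0.553% of the VEGF total in single-knockout replicates 1 to 4 and 2.2%, 1.61%, 3.28%, 2.56% and 2.19% in double-knockout replicates 1 to 5. Its mean share rose by 1.59 percentage points, from 0.777% ± 0.227 (SD, n = 4) to 2.37% ± 0.612 (SD, n = 5), with no overlap and an exact permutation p of 0.0159. *Vegfc* went from 5.64% ± 0.830 to 7.92% ± 2.11 (exact permutation p = 0.0635). This p was 0.0476 for shares of counts, for shares per kb of the longest RefSeq transcript and with *Pgf* added to the family. Among the 6 libraries without Y-linked counts the difference in mean share was 1.35 percentage points for *Vegfc*, against 2.28 over all 9, and 2.14 for *Vegfd*. *Vegfa* held 69.8% ± 4.10 and 66.3% ± 4.34 (exact permutation p = 0.270), and *Vegfb* 23.8% ± 3.57 and 23.4% ± 3.22 (exact permutation p = 0.873). The lymphatic ligands thus made up a small part of the VEGF transcripts in both genotypes, and the VEGF total itself was 84.0 to 103 CPM in single-knockout libraries and 70.7 to 99.97 CPM in double-knockout libraries.

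In the PDGF family *Pdgfa* took 95.2% to 96.6% in single-knockout libraries and 91.2% to 95.2% in double-knockout libraries. Its mean share fell from 95.7% ± 0.606 to 93.2% ± 1.58, with no overlap (exact permutation p = 0.0159) although the nearest libraries of the 2 genotypes round to the same value, while its own level did not pass the test. Shares of a family add up to the whole, so this fall is the counterpart of the rises of *Pdgfc* and *Pdgfd* below. It is no separate result. *Pdgfc* took 1.33%, 2.09%, 2.02% and 1.51% in single-knockout replicates 1 to 4 and 3.07%, 3.62%, 3.50%, 2.54% and 3.14% in double-knockout replicates 1 to 5, a rise in the mean from 1.74% to 3.18% with no overlap (exact permutation p = 0.0159). *Pdgfd* took 0.807% ± 0.657 and 1.89% ± 0.835 (exact permutation p = 0.0794). *Pdgfb* took 1.76% ± 0.304 and 1.76% ± 0.528 (exact permutation p = 0.968). The PDGF total was 68.8 to 98.9 CPM in single-knockout libraries and 85.7 to 114 CPM in double-knockout libraries, and the 2 ranges overlapped. Among the 6 libraries without Y-linked counts, where no test could pass, the difference in mean share was -1.10 percentage points for *Pdgfa*, against -2.53 over all 9. It was 0.34 for *Pdgfd*, against 1.08, and 1.28 for *Pdgfc*, against 1.44.

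**Figure D3:**
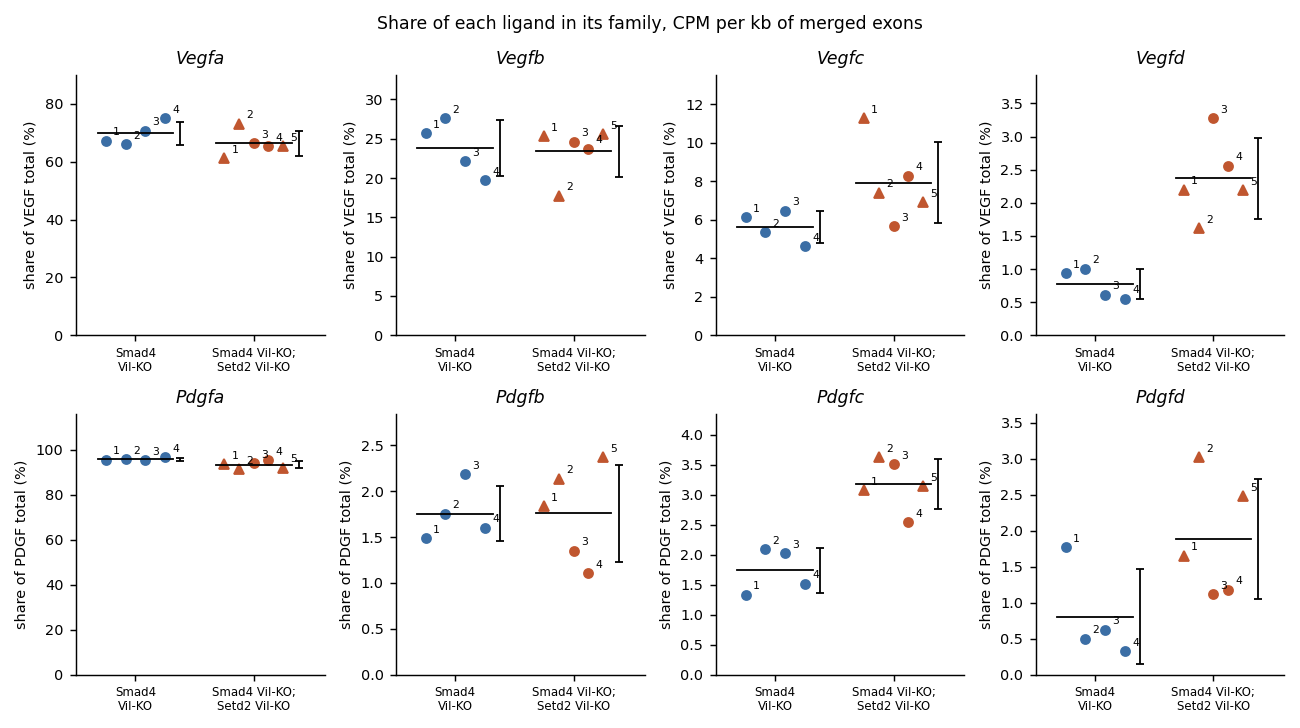
Share of each ligand in the VEGF total (upper row) and the PDGF total (lower row) in percent (y axis, linear, from 0), from CPM per kb of merged exons, for the 4 single-knockout libraries (blue) and the 5 double-knockout libraries (orange). Numbers are replicates, lines are means, bars are ± SD and triangles are libraries with Y-linked counts; Vegfd and Pdgfc lie higher and Pdgfa lower in every double-knockout library.

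Transcripts of the endothelial receptor kinases and of PDGF receptor α were scarce in the libraries. Of 9 receptor genes only the co-receptors *Nrp1* and *Nrp2* and PDGF receptor β (*Pdgfrb*) passed the filter, and none was called. *Nrp1* was at 20.2 ± 4.77 CPM in single-knockout and 23.0 ± 6.23 CPM in double-knockout libraries (log2 fold change 0.19, edgeR adjusted p = 0.607). *Nrp2* was at 37.0 ± 3.05 and 30.9 ± 3.64 CPM (-0.26 on the log2 scale, adjusted p = 0.128), and *Pdgfrb* at 8.91 ± 1.07 and 9.61 ± 1.43 CPM (0.11, adjusted p = 0.669). The VEGF receptors *Flt1*, *Kdr* and *Flt4* and the angiopoietin receptor genes *Tek* and *Tie1* had at most 9 counts in any library.

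PDGF receptor α (*Pdgfra*), which binds PDGF-A and PDGF-C, also failed the filter. It had 1, 2, 4 and 3 counts in single-knockout replicates 1 to 4 and 47, 23, 12, 5 and 1 in double-knockout replicates 1 to 5. Double-knockout replicates 1 and 2 carried most of the counts and replicate 5 lay at the level of the other genotype. In the fit without the filter, over 26890 genes, its log2 fold change was 2.80 (standard error 0.80, edgeR adjusted p = 0.0446). *Pdgfra* is another gene read by eye from the study's heat map of these libraries.

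Of 14 genes that activate or anchor these ligands or work with them, 11 were tested, 1 was higher and 2 were lower, where 6.76% of all tested genes were higher and 6.54% lower. *Pcsk5*, a proprotein convertase able to cleave VEGF-C precursors, was at 25.7, 33.1, 27.4 and 16.2 CPM in single-knockout replicates 1 to 4 and at 33.5, 40.8, 53.8, 65.4 and 42.5 CPM in double-knockout replicates 1 to 5. The groups did not overlap, although single-knockout replicate 2 and double-knockout replicate 1 were close, and the log2 fold change was 0.88 (standard error 0.23, edgeR adjusted p = 0.0283). This call was lost without single-knockout replicates 1, 3 or 4 and without double-knockout replicates 3 or 4, with adjusted p from 0.0528 to 0.0736. It was also lost with the replicate number as a block (adjusted p = 0.0698). *Furin* (0.06) and *Pcsk7* (0.22), convertases of the same kind, did not pass the test.

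*Lmf1*, a chaperone that lipoprotein lipase needs to mature, fell from 21.0 ± 3.23 to 9.0 ± 2.14 CPM (log2 fold change -1.22, edgeR adjusted p = 0.00258), without overlap and in each alternative fit. *Sdc4*, a heparan sulphate proteoglycan that holds growth factors at the cell surface, fell from 252 ± 14.8 to 197 ± 16.9 CPM (log2 fold change -0.36, adjusted p = 0.0185), and its adjusted p was 0.0526 to 0.0548 without single-knockout replicates 1, 3 or 4. The activators of latent PDGF-C and PDGF-D did not pass: *Plat* had a log2 fold change of 0.44 (adjusted p = 0.574) and *St14*, which encodes matriptase, one of -0.16 (adjusted p = 0.429). *Plau*, the urokinase gene, failed the filter with 2, 5, 8 and 7 counts in single-knockout replicates 1 to 4 and 62, 40, 7, 4 and 4 in double-knockout replicates 1 to 5, of which replicates 1 and 2 stood apart from the other 7 libraries. Neither *Lpl* (0.48) nor *Hpse*, the heparanase (0.15), passed the test. The median log2 fold change over the 11 was 0.06, beside -0.00 over all tested genes.

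**Figure D4:**
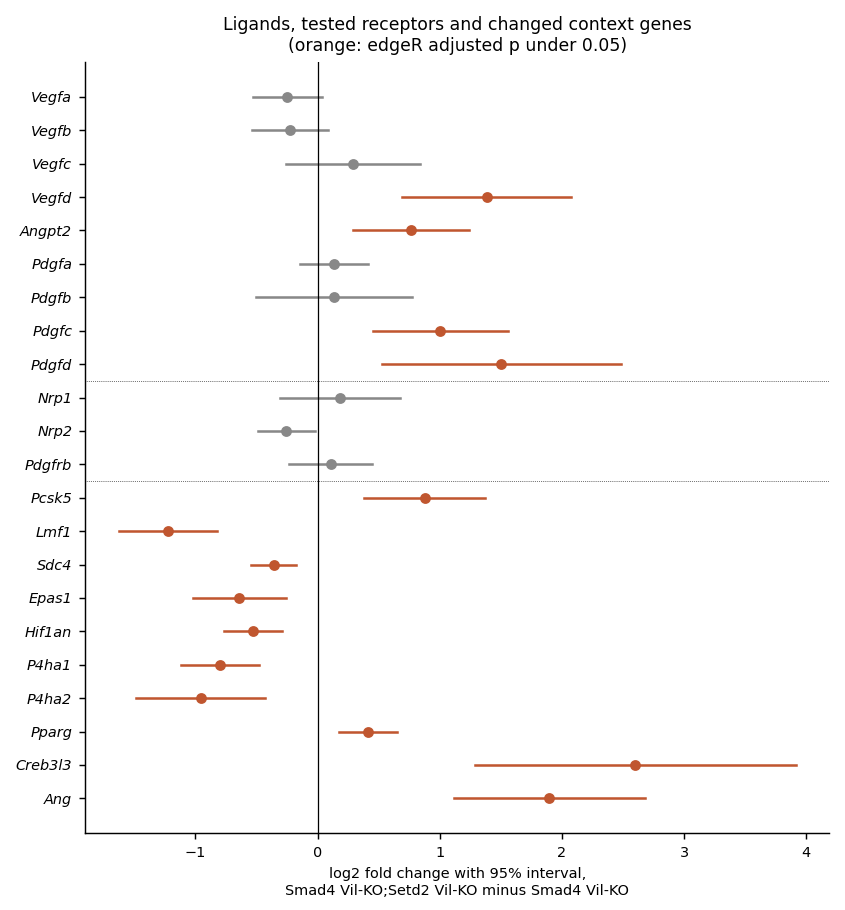
log2 fold changes (x axis, double-knockout over single-knockout) with their 95% intervals from edgeR's quasi-likelihood test for the 9 tested ligands, the 3 tested receptors and the called genes of the context lists, in orange where the adjusted p was under 0.05. Vegfd, Angpt2, Pdgfc and Pdgfd lie to the right of 0; Fabp1 and Bmper, which never exceeded 3 counts in a single-knockout library, are not drawn.

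*Vegfa* and *Angptl4* are textbook targets of hypoxia-inducible factors (HIFs). Of 25 genes of the HIF pathway and its targets, all 25 were tested, none was higher (6.76% of all tested genes) and 4 were lower (6.54% of all), with a median log2 fold change of -0.04. *Epas1*, which encodes HIF-2α, was at 98.3 ± 6.10 CPM in single-knockout and 63.1 ± 17.0 CPM in double-knockout libraries (log2 fold change -0.64, edgeR adjusted p = 0.0351). *Hif1an*, the asparagine hydroxylase that inhibits HIFs, fell from 96.9 ± 6.5 to 67.3 ± 9.91 CPM (-0.52, adjusted p = 0.0115). The collagen prolyl hydroxylase subunits *P4ha1* (-0.80, adjusted p = 0.00692) and *P4ha2* (-0.96, adjusted p = 0.0264) fell as well. The groups did not overlap for any of the 4, as for 8.87% of all tested genes in this direction.

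The classical glycolytic and pH-regulating targets did not pass: *Ldha* was at -0.03, *Slc2a1* at 0.15 and *Car9* at -0.19 on the log2 fold scale. *Hif1a* itself was at 222 ± 19.2 and 217 ± 35.7 CPM. *P4ha1* held its call in each alternative fit. *Epas1* lost it without any one of the 4 single-knockout libraries and without double-knockout replicates 3 or 4 (adjusted p 0.0582 to 0.0894). *P4ha2* lost it in 8 of 18 alternatives. Among these were the fits without single-knockout replicates 1, 2 or 3 and without double-knockout replicates 1 or 4 (adjusted p 0.0509 to 0.0769). With a term for Y-linked counts the adjusted p was 0.0780 for *Epas1*, 0.0610 for *Hif1an* and 0.115 for *P4ha2*.

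*Angptl4* is also a target of the PPAR nuclear receptors, which drive fatty acid oxidation. Of 20 PPAR genes and targets, 18 were tested, 3 were higher (6.76% of all tested genes) and none was lower (6.54% of all), with a median log2 fold change of 0.20. *Pparg* was at 69.9 ± 9.32 and 93.0 ± 10.1 CPM, which was a log2 fold change of 0.41 (edgeR adjusted p = 0.0316). *Creb3l3*, a membrane-bound transcription factor of lipid metabolism, was at 2.63 to 4.93 CPM in single-knockout libraries and 3.95 to 46.0 CPM in double-knockout libraries (2.60, adjusted p = 0.0187). Double-knockout replicate 5 lay within the single-knockout range. *Fabp1*, a fatty acid binding protein of small intestine and liver, had 1, 3, 1 and 0 counts in single-knockout replicates 1 to 4 and 61, 69, 42, 91 and 26 in double-knockout replicates 1 to 5 (adjusted p = 0.000498). It passed the filter only through the double-knockout libraries, in which it was high.

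*Fabp1* was called in each alternative in which it was tested. *Pparg* lost its call without single-knockout replicates 1, 2 or 4 and without double-knockout replicates 2 or 3 (adjusted p 0.0561 to 0.0943), and *Creb3l3* without single-knockout replicates 1, 3 or 4 (0.0522 to 0.0611). With a term for Y-linked counts the adjusted p was 0.0854 for *Pparg* and 0.0828 for *Creb3l3*.

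Among 19 other factors that promote or restrain vessel growth, 10 were tested, 2 were higher (6.76% of all tested genes) and none was lower (6.54% of all), with a median log2 fold change of -0.10. *Ang*, which encodes the ribonuclease angiogenin, was at 1.6, 1.72, 1.66 and 4.29 CPM in single-knockout replicates 1 to 4 and at 4.74, 9.25, 8.39, 8.65 and 11.7 CPM in double-knockout replicates 1 to 5. The lowest double-knockout library was just above the highest single-knockout library, and the log2 fold change was 1.90 (standard error 0.36, edgeR adjusted p = 0.00748). *Bmper*, a BMP-binding protein of endothelial cells, had 0, 3, 2 and 3 counts and 21, 29, 6, 13 and 13 counts (adjusted p = 0.0118), and it too passed the filter only through the double-knockout libraries. *Fgf1* (-0.15), *Thbs1* (0.09), *Dll4* (-0.09) and *Hdgf* (-0.11) did not pass. *Thbs2*, on the same list but below the filter, had 3, 38, 81 and 73 counts in single-knockout replicates 1 to 4. In double-knockout replicates 1 to 5 it had 3, 4, 5, 4 and 0. *Apln*, also below the filter, went the other way, with 7, 4, 11 and 2 against 31, 20, 10, 18 and 5 counts. The groups overlapped for both. Of 9 further VEGF and angiopoietin ligands only *Angptl2* (-0.57) and *Angptl8* (0.42) were tested, and neither was called. *Angptl6*, below the filter, had 10, 18, 16 and 11 counts in single-knockout replicates 1 to 4 and 3, 7, 5, 6 and 4 in double-knockout replicates 1 to 5, or 0.892 ± 0.185 and 0.364 ± 0.125 CPM. Its groups did not overlap, with lower levels in double-knockout libraries, and its single-knockout mean was above those of *Vegfd* and *Pdgfd*. *Ang* was called in each alternative fit. *Bmper* was called in 11 of the 12 alternatives in which it was tested, and not with the term for Y-linked counts (adjusted p = 0.0732).

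The ligands are made by several cell types, so marker transcripts were summed per library. Markers of fibroblasts, pericytes and smooth muscle (11 genes) summed to 12.8, 24.2, 30 and 15.9 CPM in single-knockout replicates 1 to 4 and to 32.4, 39.8, 59.4, 27.1 and 20.9 CPM in double-knockout replicates 1 to 5. The ranges overlapped, but the 3 highest sums were all in double-knockout libraries. None of the 5 tested markers was called, with *Dcn*, a proteoglycan of fibroblasts, at 6.73 ± 3.69 and 17.2 ± 8.38 CPM (log2 fold change 1.35, edgeR adjusted p = 0.0766). *Dcn* made up much of the sum, which without it was 9.82 to 19.7 CPM in single-knockout and 10.7 to 30.6 CPM in double-knockout libraries. Of the other 4 tested markers *Col3a1* (0.78), *Notch3* (0.79) and *Col1a2* (0.45) had positive log2 fold changes and *Col1a1* (-0.31) a negative one, and the smooth muscle actin gene *Acta2*, below the filter, had 9, 24, 27 and 17 counts against 6, 7, 4, 0 and 3, lower without overlap. The median sum was 20.1 CPM in single-knockout and 32.4 CPM in double-knockout libraries, the genotype in which *Vegfd*, *Angpt2*, *Pdgfc* and *Pdgfd*, ligands that fibroblasts, pericytes or endothelial cells can also make, were higher. The part of these cells in the ligand differences was not tested.

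Double-knockout replicate 3, which held the highest sum of these markers, also held the highest *Vegfd* and *Angpt2* levels and the lowest *Pdgfd* level of its group (1.05 CPM), while *Pdgfc* was highest in replicate 2 (6.19 CPM). Without that library the log2 fold change was 1.25 for *Vegfd* (edgeR adjusted p = 0.0345) and 0.70 for *Angpt2* (adjusted p = 0.0748). Replicate 5 had the lowest sum of its group, with *Vegfd* at 1.09, *Angpt2* at 5.27, *Pdgfc* at 4.27 and *Pdgfd* at 2.09 CPM.

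Endothelial markers (10 genes) summed to 38 to 84.2 CPM in single-knockout libraries and to 16.8 to 86.3 CPM in double-knockout libraries. Most of this was *Ly6c1* (27.9 to 73.4 and 8.32 to 76.7 CPM), and without it the sums were 10 to 10.8 and 8.53 to 12.4 CPM. Of their defining members, *Cldn5* had 0 counts in all 9 libraries and *Cdh5* at most 4, while *Pecam1* had 18 to 43 and *Vwf* 36 to 114. None of the 4 tested endothelial markers was called. Lymphatic endothelial markers (4 genes) summed to 8.34 to 19.3 and 8.59 to 12.7 CPM, leukocyte markers (10 genes) to 55.4 to 153 and 50.3 to 108 CPM and platelet markers (4 genes) to 1.54 to 3.15 and 1.78 to 3.27 CPM. These groups overlapped and none of their tested members was called.

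Markers of small intestinal enterocytes stood apart from the others. Their sum over 10 genes was 229 to 294 CPM in single-knockout libraries and 476 to 977 CPM in double-knockout libraries, without overlap, and 6 of the 8 tested were called higher (6.76% of all tested genes), whereas none of 5 colonocyte markers was called. Of the 6, *Apoa1*, *Enpep* and *Sis* reached the level of the filter in 0, 2 and 3 single-knockout libraries and in 4, 5 and 5 double-knockout libraries, so that they were tested only through the group in which they were high. The count of 6 is therefore no support for a direction. *Fabp1* and *Creb3l3* are themselves genes of small intestinal enterocytes. The part of this difference in the ligand values was not tested.

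**Figure D5:**
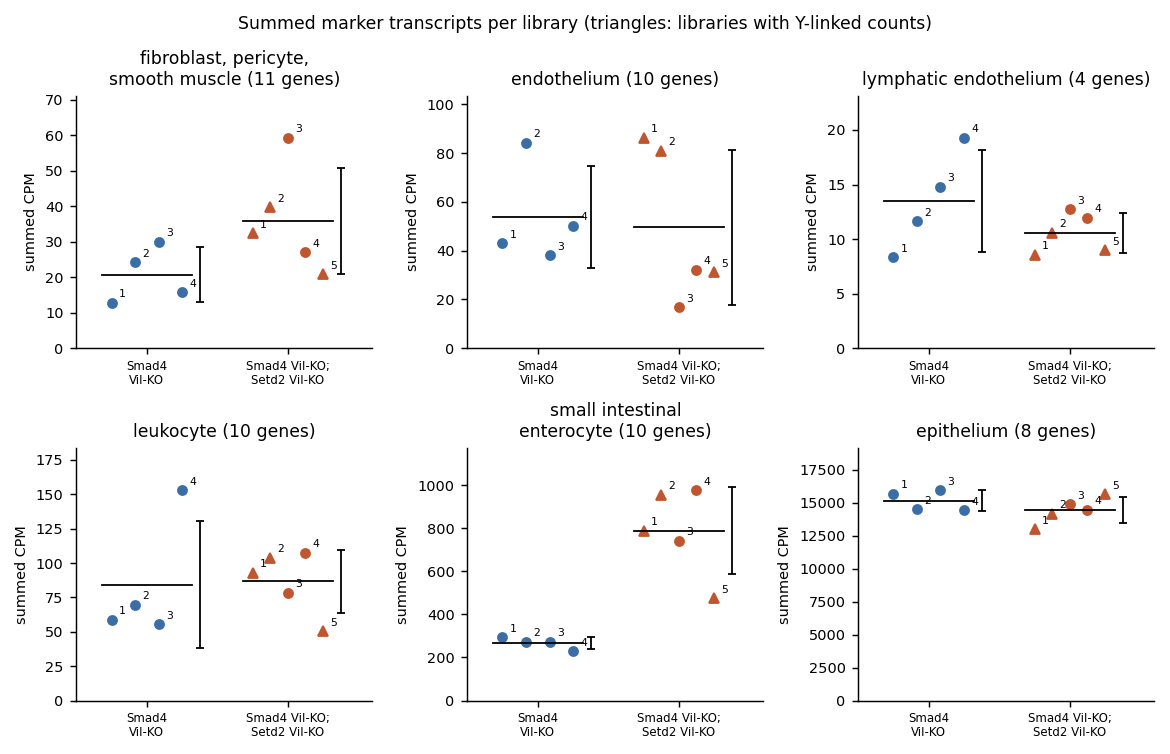
Summed CPM of marker genes (y axes, linear, from 0) for 6 cell types in the 4 single-knockout libraries (blue) and the 5 double-knockout libraries (orange), with replicate numbers, means (lines), ± SD (bars) and triangles for libraries with Y-linked counts. The groups are separated for small intestinal enterocyte markers and overlap for the other 5 sums, with double-knockout replicate 3 the highest for fibroblast, pericyte and smooth muscle markers.

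For each ligand that was called, the 2 genes with the nearest profile were found among the 13700 genes that averaged 1 CPM or more, as the Euclidean distance between standardized log2 CPM over the 9 libraries. *Vegfd* lay nearest to *Syt10*, a synaptotagmin (distance 0.354), and *Twf1*, an actin-binding protein (0.483). *Angpt2* lay nearest to *Klf8*, a zinc finger transcription factor (0.522), and *Grb10*, a receptor adaptor (0.539). *Pdgfc* lay nearest to *Lgals1-ps2*, a pseudogene (0.645), and *Plag1*, a zinc finger transcription factor (0.685). *Pdgfd* lay nearest to the convertase gene *Pcsk7* (0.551) and to *Plcb1*, a phospholipase (0.610). The other ligands were in none of these pairs. Such likeness follows the genotype difference that was used to choose the ligands, and is given as a description.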

How the data were processed

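Genotype and replicate of each library were taken from the sample labels, 1 mouse per library. The authors deposited whole-number counts per gene symbol, neither normalized nor pooled; per the submitters' processing notes, HISAT2 (2.0) and mm10 were used, and the counting program, annotation and use of strand are not given in the sources used here. Of the symbols, 27 had turned into dates and stayed in totals and tests unnamed. In all 16 pairs within a genotype the counts differed by more than sampling noise (chi-square per gene 9.22 or more), so all 9 counted as replicates.

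Genes kept by filterByExpr of edgeR 4.0.16 (R 4.3.3) were normalized with TMM and tested by quasi-likelihood with Benjamini-Hochberg adjustment, without covariates. Standard errors were obtained by dividing the log2 fold change by the root of F. Exact permutation tests (SciPy 1.17.1) compared family shares. Lengths and positions came from GENCODE for GRCm38. The method was tested on simulated counts. Alternatives were DESeq2 1.42.0, limma-voom (limma 3.58.1), other scalings and filters, each library left out, a replicate block, Y-linked counts and other share definitions. Named were the 10 ligands, *Setd2*, *Smad4*, the receptors with a value, called members of the context lists and the 2 nearest profiles. Other genes (*Angpt1*, *Angptl6*, *Mcph1*, *Thbs2*, *Apln*, *Dcn*, *Acta2*, *Ly6c1*, *Apoa1*, *Enpep*, *Sis*, *Cldn5*, *Cdh5* and members that were not called) were named, and marker sums without 1 gene added, after their values were seen. The ligands and all gene lists were chosen with earlier results of these data known.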

Additional observations from a re-analysis of the deposited data

Results flagged for a closer look

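In 34 sets of 4 or 5 libraries, 1 library lay farther from the others than Dixon's 95% limit in 4, and about 1 in 20 is flagged by chance. *Vegfa* was at 86.1 CPM in double-knockout replicate 2, where the other 4 libraries of that genotype were at 57.2 to 63.0 CPM. *Vegfb* was at 7.54 CPM in single-knockout replicate 4, with the other 3 at 10.3 to 10.9 CPM. *Pdgfa* was at 64.8 CPM in single-knockout replicate 1, with the other 3 at 89.9 to 93.1 CPM. The share of *Vegfb* in the VEGF total was 17.8% in double-knockout replicate 2, the library with the high *Vegfa*, and 23.7% to 25.6% in the other 4 of that genotype.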

How the results depend on the processing

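The 4 ligands called higher kept their direction in each alternative in which they were tested. Without the filter on low counts the log2 fold change was 0.75 for *Angpt2* (adjusted p = 0.0813) and 1.49 for *Pdgfd* (0.0592). The term for Y-linked counts gave 0.95 for *Pdgfc* (0.0926) and 0.84 for *Pdgfd* (0.328), and the libraries without such counts alone gave 0.96 (0.0613) and 0.84 (0.289). *Pdgfb*, not called in any fit, turned to -0.083 with limma-voom, -0.34 with the Y-linked term, -0.34 in libraries without Y-linked counts and -0.025 without single-knockout replicate 1.

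With each library left out, log2 fold changes were 1.24 to 1.5 for *Vegfd*, 0.66 to 0.86 for *Angpt2*, 0.82 to 1.13 for *Pdgfc*, 1.23 to 1.98 for *Pdgfd*, -0.37 to -0.17 for *Vegfa* and -0.025 to 0.31 for *Pdgfb*. The number of ligands called higher was then 0 to 3, and 0 without single-knockout replicate 4. It was 2 without the filter, with the Y-linked term, without Y-linked libraries and when 10 counts were required in every library, which leaves *Vegfd* and *Pdgfd* untested. The number called lower was 0, or 1 (*Vegfa*) without double-knockout replicate 2.

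Over all genes, higher calls were 455 to 1380 and lower calls 392 to 1316 with each library left out. With the Y-linked term they were 653 and 632, and lower calls were 1525 with limma-voom and 1524 without Y-linked libraries. Adding the replicate number as a block gave 1 ligand called higher (*Pdgfc*), with log2 fold changes of 1.43 for *Vegfd* (adjusted p = 0.0588), 0.72 for *Angpt2* (0.0939) and 1.47 for *Pdgfd* (0.0813). The deviations of libraries with the same number from their group means correlated by -0.0955, -0.104, 0.0196 and 0.0878. No single-knockout library correlated best with the double-knockout library of its own number. The study states that controls were littermates, and these values cannot tell whether libraries shared a litter or a batch.

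The *Vegfb* share difference was -0.40 percentage points, 0.0031 for shares of counts and -1.77 to 1.01 with a library left out. That of *Pdgfb* was 0.0039, -0.0164 for shares of counts, -0.53 without Y-linked libraries and -0.15 to 0.17 with a library left out. That of *Vegfc* was 1.69 for shares of counts, 1.89 per kb of RefSeq transcript (a length chosen after seeing the data), 2.27 with the family widened and 1.43 to 2.84 with a library left out. Without Y-linked libraries that of *Pdgfa* was -1.10 (-2.53 over all), that of *Pdgfd* 0.34 and that of *Vegfc* 1.35. That of *Pdgfd* was 0.80 to 1.41 with a library left out. Depth limits *Vegfd* and *Pdgfd*, with 4 to 10 and 4 to 19 counts in single-knockout libraries. The cause of these changes was not tested.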
